A study of Mus musculus with 26 samples.

Results

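JAK2V617F haematopoietic stem cells (HSCs) were set against HSCs with Ezh2 loss, gene by gene, in libraries chosen for these 2 genotypes. All 7 JAK2V617F and all 7 Ezh2 loss libraries were used, 14 of the 26 mouse libraries deposited. The other libraries, 7 carrying JAK2V617F together with Ezh2 loss and 5 controls, are given as levels beside the results. They did not enter the main test of this comparison. Only alternative settings used them, in a fit over all 26 libraries and in a gene filter over the 26. The labels spell the mutation of the double mutant JAK2V17F, which was read here as JAK2V617F. HSCs were purified from bone marrow by flow cytometry and made into libraries by Smart-Seq2, a full-length method for very few cells. Levels are RPKM, reads per kilobase of gene length, scaled to the size of the library. Library titles put their number either before the group code (number-first) or after it (number-last), and both genotypes hold 2 number-first and 5 number-last libraries. The number-first libraries are replicates 1 and 3 of JAK2V617F and replicates 3 and 4 of Ezh2 loss. All 7 double-mutant and 4 of the 5 control libraries are number-first, so genotype and title style cannot be told apart where these groups are set beside the others. The controls are labelled CTR. The sources used here do not give age, sex, strain, the alleles or promoters behind each genotype, or the number of mice or cells per library. No label ties a library to a separate mouse. The p-values therefore rest on library-to-library spread alone, which may be technical.

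JAK2 is the kinase that carries signals from cytokine receptors to the STAT transcription factors. The V617F change leaves it active without its ligand and is the commonest driver of myeloproliferative neoplasms, diseases in which HSCs overproduce red cells, platelets or granulocytes. EZH2 is the enzyme of Polycomb repressive complex 2 (PRC2) that methylates lysine 27 of histone H3 and keeps genes silent, often at promoters rich in CG dinucleotides. Loss of EZH2 accompanies JAK2V617F in some patients and is known to promote myelofibrosis in mice with the mutation.

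Estimated depth was 7.8 to 24.9 megareads, and 9223 to 10664 genes reached 1 RPKM in a library. Of the 91 pairs of these libraries none shared a non-zero value, and pairwise correlations of log2 levels lay between 0.864 and 0.941, as a description over genes. All 8 HSC markers checked were above 0 in every one of the 14 libraries. Markers of mature blood cells covered different ranges in the 2 genotypes. The summed level of 8 neutrophil markers ran from 72.9 to 17655 RPKM in JAK2V617F (median 86.2), against 404 to 38181 RPKM in Ezh2 loss (median 9413). In JAK2V617F, replicate 3 alone was above 125 RPKM. The summed level of 7 erythroid markers ran from 0 to 26.5 RPKM in JAK2V617F (median 4.21), against 29.7 to 6074 RPKM in Ezh2 loss (median 1051), with no overlap. Within that sum Hba-a1 and Hba-a2 were listed at 0 in every library, and Hbb-b1 reached 0.527 RPKM at most. The beta globin Beta-s alone had medians of 3.83 RPKM in JAK2V617F and 877 RPKM in Ezh2 loss. S100a8 was above 0 in all 14 libraries, whereas Ltf, Lcn2 and Mmp8 were listed at 0 in 4, 6 and 6 JAK2V617F libraries, against 2, 1 and 5 Ezh2 loss libraries. In bulk libraries, fewer cells of a type and less RNA per cell cannot be told apart.

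**Figure D1:**
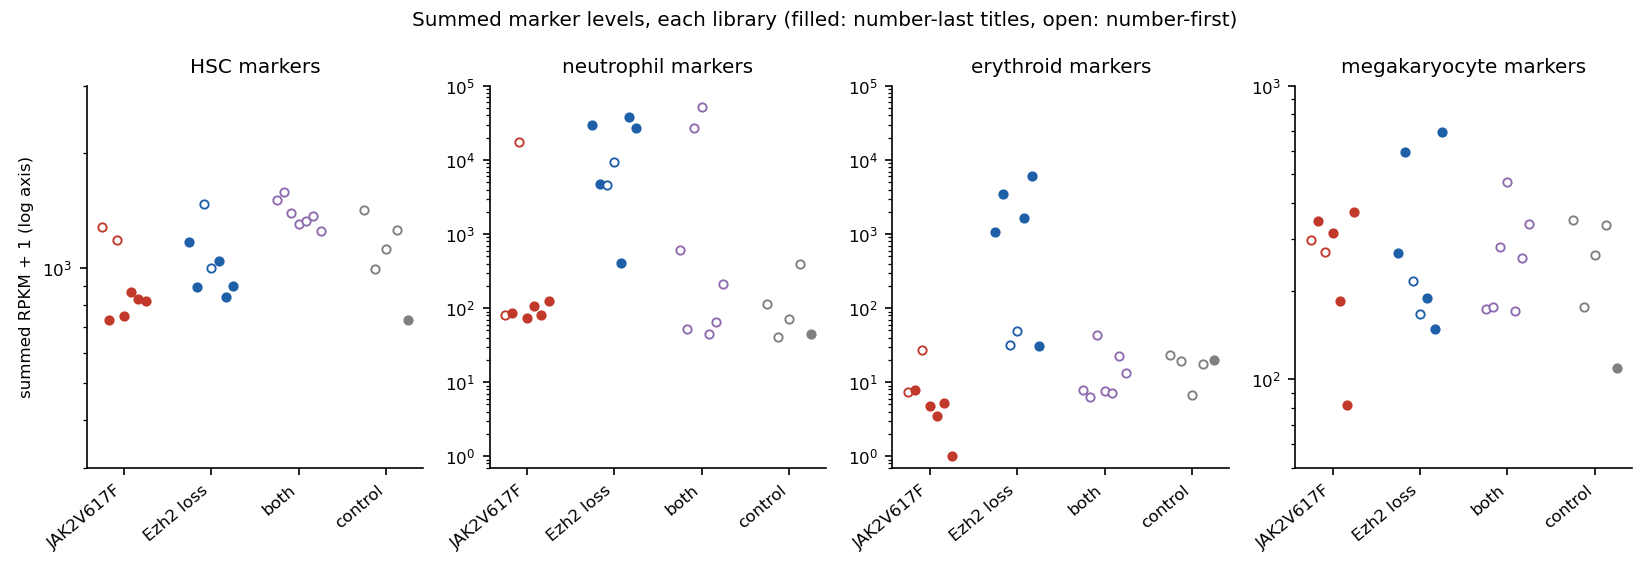
Summed RPKM (plus 1, log axes of different range) of HSC, neutrophil, erythroid and megakaryocyte markers, 1 point per library, filled for number-last and open for number-first titles. JAK2V617F libraries are at or below 125 RPKM of neutrophil markers except replicate 3 at 17655 RPKM, whereas the Ezh2 loss libraries run from 404 to 38181 RPKM.

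The genes behind the genotypes were examined first. Ezh2 RNA ran from 20.4 to 40.2 RPKM in JAK2V617F (median 23.99), against 5.15 to 31.4 RPKM in Ezh2 loss (median 15.4). The groups overlapped, and Ezh2 loss replicates 4 and 6 were within the JAK2V617F range. The log2 difference was 0.71 (SE 0.36), with an adjusted p of 0.79 across all genes. An exact two-sided permutation test within title style gave p = 0.0476, or 0.0952 adjusted for the 2 genes tested this way. RPKM per gene cannot show whether an exon was deleted, so this level does not check the label. Jak2 RNA ran from 0.996 to 18.9 RPKM in JAK2V617F (median 14.5), against 6.65 to 30.3 RPKM in Ezh2 loss (median 13.5), with an exact p of 0.37. V617F is a single base change that a gene level does not read.

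Few genes separated the genotypes. Of 11001 genes with at least 1 RPKM in 5 or more of the 14 libraries, 10 passed at an adjusted p under 0.05, which is 0.0909%. The test was limma on log2(RPKM + 1) with title style as a covariate and Benjamini-Hochberg adjustment, and every log2 difference below is JAK2V617F minus Ezh2 loss on that scale, which understates the change of low genes. Gas5, Esr1, Gadd45g, Ppp1r14a and Gnb1 were higher in JAK2V617F, and Retnlg, Dynlt1b, Tmem181b-ps, Pde2a and Arhgdib were lower. Leaving out JAK2V617F replicate 3 raised the count to 16, which included the 10. Without adjustment 719 genes (6.54%) had p under 0.05, of which 374 were higher and 345 lower. Over all tested genes 50.2% were higher in JAK2V617F and the median log2 difference was 0.0026. In 4 genes (0.0364%) every JAK2V617F library exceeded every Ezh2 loss library, namely Gas5, Esr1, Gadd45g and Ppp1r14a. In 10 genes (0.0909%) every JAK2V617F library was below every Ezh2 loss library: Dynlt1b, Retnlg, Tmem181b-ps, Pde2a, Arhgdib, Jun, Oas3, Gh, Rasa3 and Apobec3.

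The start regions of 5 of the 10 genes are shown, chosen after their values were seen, to set genes of both directions side by side for CG dinucleotides and for a STAT motif. Each is a RefSeq window (GRCm38.p6) from 250 bases before to 50 after an annotated start, 5′ to 3′ on the gene's strand. Capitals mark CG dinucleotides in the first 4 sequences and, in Esr1, letters of the form TTCNNNGAA. STAT dimers are known to bind that form. The windows are Gas5 at chr1:161034351-161034650 (+), Gadd45g at chr13:51846425-51846724 (+), Retnlg at chr16:48872358-48872657 (+), Arhgdib at chr6:136941850-136942149 (-) and Esr1 at chr10:4709908-4710207 (+).
Gas5: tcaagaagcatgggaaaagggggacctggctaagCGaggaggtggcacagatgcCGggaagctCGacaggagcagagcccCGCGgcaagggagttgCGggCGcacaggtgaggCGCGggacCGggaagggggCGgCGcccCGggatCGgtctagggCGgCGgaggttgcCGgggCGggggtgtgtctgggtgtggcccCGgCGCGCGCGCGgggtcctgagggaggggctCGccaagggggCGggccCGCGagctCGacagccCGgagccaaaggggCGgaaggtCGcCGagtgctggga
Gadd45g: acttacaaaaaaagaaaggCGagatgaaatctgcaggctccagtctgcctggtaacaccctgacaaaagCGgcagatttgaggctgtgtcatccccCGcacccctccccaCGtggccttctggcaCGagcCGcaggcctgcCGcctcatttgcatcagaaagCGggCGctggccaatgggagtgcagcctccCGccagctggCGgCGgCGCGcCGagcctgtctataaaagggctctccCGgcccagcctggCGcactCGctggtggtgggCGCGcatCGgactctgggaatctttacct
Retnlg: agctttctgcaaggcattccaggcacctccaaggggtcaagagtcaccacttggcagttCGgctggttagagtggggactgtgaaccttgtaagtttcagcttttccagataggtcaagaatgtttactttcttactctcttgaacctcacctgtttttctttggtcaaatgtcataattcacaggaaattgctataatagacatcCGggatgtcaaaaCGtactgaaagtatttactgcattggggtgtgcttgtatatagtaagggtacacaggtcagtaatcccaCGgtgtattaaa
Arhgdib: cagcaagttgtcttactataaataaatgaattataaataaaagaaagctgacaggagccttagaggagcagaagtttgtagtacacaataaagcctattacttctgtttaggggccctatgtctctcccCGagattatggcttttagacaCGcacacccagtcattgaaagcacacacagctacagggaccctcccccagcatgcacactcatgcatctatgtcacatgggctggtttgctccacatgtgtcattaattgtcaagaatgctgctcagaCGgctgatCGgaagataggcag
Esr1: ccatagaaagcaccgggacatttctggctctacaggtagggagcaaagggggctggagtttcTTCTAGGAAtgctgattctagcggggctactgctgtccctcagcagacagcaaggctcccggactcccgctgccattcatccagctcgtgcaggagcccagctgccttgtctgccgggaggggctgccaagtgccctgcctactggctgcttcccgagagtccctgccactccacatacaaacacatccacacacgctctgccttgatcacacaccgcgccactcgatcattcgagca
The Gas5 and Gadd45g windows held 33 and 21 CG dinucleotides, the Retnlg and Arhgdib windows 4 each, and the Esr1 window 12. Over the first window listed per gene, the median was 23 CG in 8 of the 12 named genes that led on the JAK2V617F side and 4 in 10 of the 12 that led on the Ezh2 loss side. It was 21 over the 8225 tested genes with a window. Windows with 10 or more CG made up 87.5% of the 8, 40% of the 10 and 84.2% of the 8225. The named genes were chosen by their values in this comparison. On the Ezh2 loss side Retnlg, Slpi, Cybb and Ccl6, products of myeloid cells, held 4, 2, 1 and 2 CG. Pde2a and Arhgdib held 3 and 4, and Csrp1, Jun, Creld1 and Ypel3 held 17, 15, 21 and 28. What lies behind the difference in CG was not tested. The count depends on which start is taken, since the first Pde2a window held 3 CG and its other windows 18, 6, 6 and 29. Beside the windows shown, the other Gas5 window held 19 CG, the other Esr1 window 6, and the other Arhgdib windows 4 and 8. The TTCNNNGAA letters, which read the same on both strands, were in a window of 1 of the 20 named genes that have one, against 8.5% of those 8225 genes. The match lies in 1 of the 2 Esr1 windows, and letters alone show no binding.

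Gas5 gave the smallest p of all genes. It is a long non-coding RNA that hosts small nucleolar RNAs and accumulates when growth slows. Gas5 ran from 437 to 979 RPKM in JAK2V617F (median 721), against 231 to 418 RPKM in Ezh2 loss (median 353). No JAK2V617F library reached down into the Ezh2 loss range, and replicate 3 was the lowest. The log2 difference was 1.19 (SE 0.13, limma adjusted p = 0.000461). Double-mutant libraries had 169.8 to 465 RPKM of Gas5 and controls 299 to 689 RPKM. Snord47, a small nucleolar RNA encoded within Gas5, had a log2 difference of -0.03 (limma adjusted p = 0.99), with medians of 335 RPKM in JAK2V617F and 381 RPKM in Ezh2 loss. Reads from sequence that the host and the small RNA share cannot be told apart.

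Esr1 encodes oestrogen receptor alpha, a hormone-activated transcription factor known to act in mouse HSCs. Esr1 ran from 13.04 to 38.4 RPKM in JAK2V617F (median 20.5), against 0.251 to 7.26 RPKM in Ezh2 loss (median 1.45). This is a log2 difference of 3.05 (SE 0.47, limma adjusted p = 0.00771). Double-mutant libraries had 0.0403 to 0.473 RPKM of Esr1, and controls 0.57 to 22.97 RPKM with a median of 3.58. Control replicate 3 was the 1 library outside JAK2V617F above 10 RPKM. Esr2, the other oestrogen receptor, was listed at 0 in all 7 JAK2V617F libraries and in 6 of 7 Ezh2 loss libraries.

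Gadd45g is a stress-induced gene that slows the cell cycle and feeds p38 and JNK signalling. Gadd45g ran from 211 to 427 RPKM in JAK2V617F (median 283), against 34.0 to 164 RPKM in Ezh2 loss (median 104), and the log2 difference was 1.65 (SE 0.26, limma adjusted p = 0.00822). Double-mutant libraries had a median of 108 RPKM and controls of 149 RPKM. The relatives Gadd45b and Gadd45a were at log2 differences of 2.06 and 1.15 and did not pass (limma adjusted p = 0.48 and 0.81). Gadd45b was above 54 RPKM in every JAK2V617F library, against a median of 18.5 RPKM in Ezh2 loss, where replicate 3 stood at 395 RPKM.

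Ppp1r14a, an inhibitor of myosin phosphatase, was low in both groups. It ran from 2.61 to 9.32 RPKM in JAK2V617F (median 4.24), and was listed at 0 in 6 Ezh2 loss libraries and at 1.30 RPKM in replicate 7. The fit gave a log2 difference of 2.37 (SE 0.40, limma adjusted p = 0.0186). It was listed at 0 in 3 of 7 double-mutant and 2 of 5 control libraries, whose highest values were 6.49 and 8.93 RPKM. The adjusted p was 0.0507 to 0.0656 without JAK2V617F replicate 4 or without Ezh2 loss replicate 1, 2, 4 or 6.

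Gnb1, a beta subunit of heterotrimeric G proteins, ran from 133 to 573 RPKM in JAK2V617F (median 434), against 53.5 to 188 RPKM in Ezh2 loss (median 109.5). JAK2V617F replicate 1 was the library within the Ezh2 loss range. Across all 14 libraries Gnb1 had a log2 difference of 1.72 (SE 0.30, limma adjusted p = 0.0266), and the difference was 2.34 in number-last libraries but 0.16 in number-first libraries. The difference between styles did not pass for Gnb1 in the limma interaction fit, with an adjusted p of 0.9998 over all genes. Leaving out any 1 of the 10 number-last libraries raised the adjusted p of Gnb1 above the threshold, to between 0.0551 and 0.0892. The relatives Gnb2, at -0.84, and Gnb4, at 1.28, did not pass (limma adjusted p = 0.72 and 0.75).

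**Figure D2:**
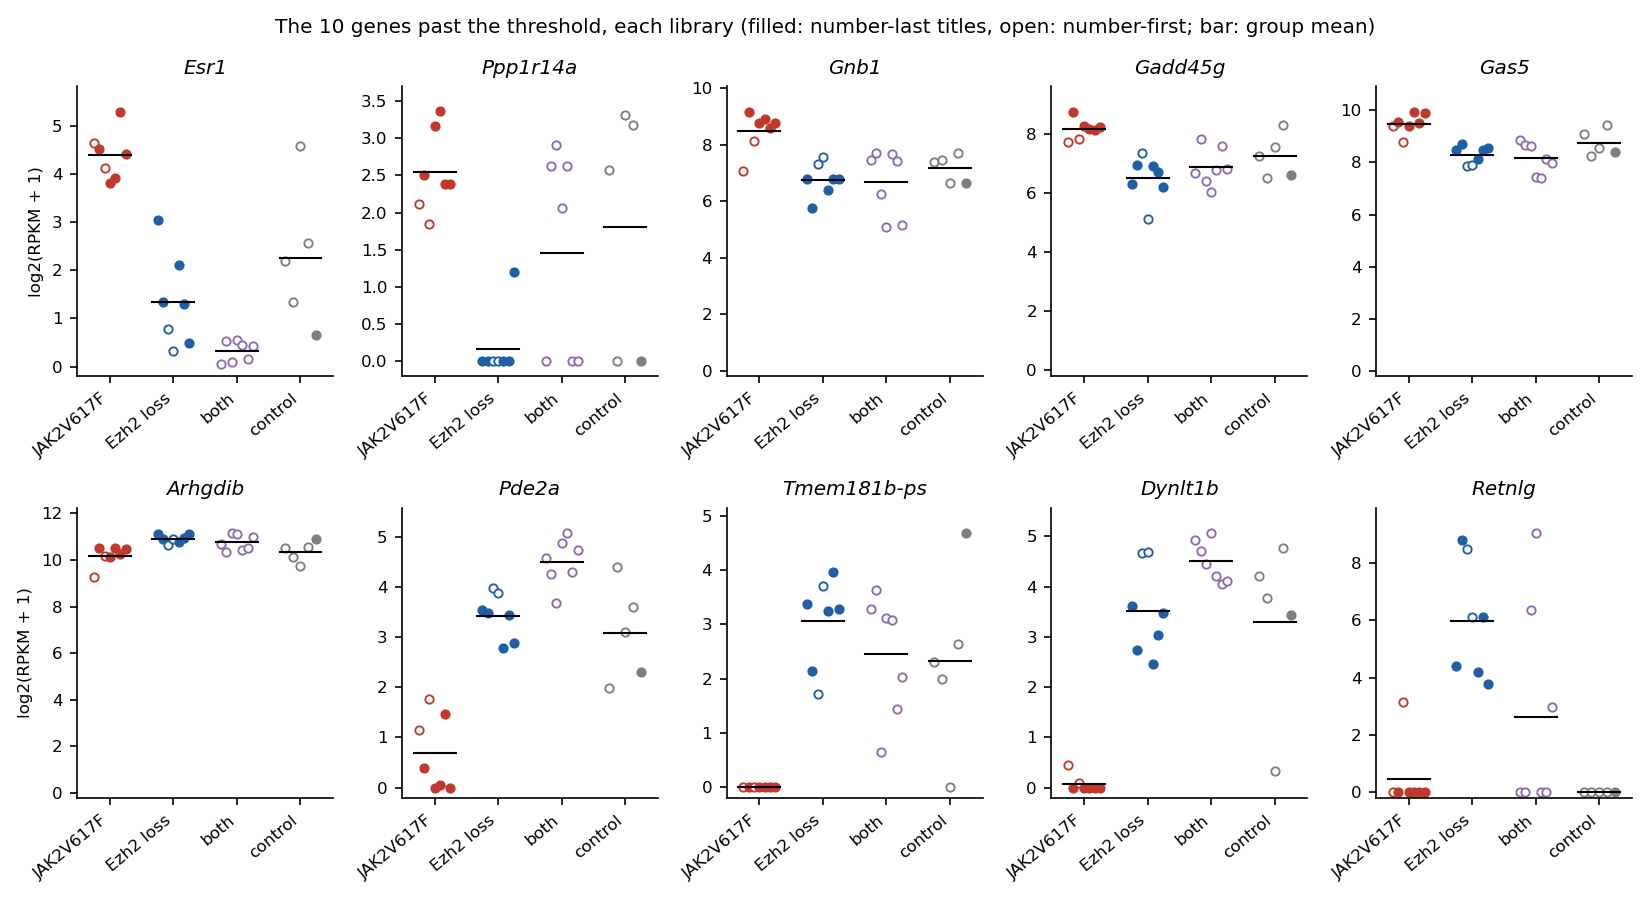
log2(RPKM + 1) of the 10 genes past the threshold in each library of the 4 groups, with bars at group means. Filled points are number-last and open points number-first libraries. Gas5, Esr1, Gadd45g and Ppp1r14a show no overlap between JAK2V617F and Ezh2 loss, and in Gnb1 1 open JAK2V617F point lies within the Ezh2 loss range.

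Retnlg had the largest log2 difference of the 10. It encodes resistin-like gamma, a secreted protein of neutrophils and their precursors. Retnlg was listed at 0 in 6 JAK2V617F libraries and at 7.94 RPKM in replicate 3, against 12.7 to 449 RPKM in Ezh2 loss (median 68.0). Retnlg had a log2 difference of -5.54 (SE 0.71, limma adjusted p = 0.00124). It was listed at 0 in all 5 controls and in 4 of 7 double-mutant libraries, and reached 526 RPKM in another double-mutant library. Within Ezh2 loss Retnlg, itself a member of the neutrophil marker sum, did not follow that sum in order. In Ezh2 loss, Retnlg was at 12.65 RPKM in replicate 7, where the marker sum was 26813 RPKM, and at 17.45 RPKM in replicate 5, where the sum was 404 RPKM. Within JAK2V617F the library with the highest marker sum, replicate 3 (17655 RPKM), was the only library with Retnlg above 0 (7.94 RPKM).

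Dynlt1b and Tmem181b-ps lie next to each other on chromosome 17 and both fell in JAK2V617F. Dynlt1b, a light chain of the cytoplasmic dynein motor, is annotated at chr17:6430112-6436296 (+), and the transcribed pseudogene Tmem181b-ps at chr17:6438524-6467022 (-), 2227 bases further on (GRCm38, GENCODE M21). Dynlt1b was listed at 0 in 5 JAK2V617F libraries and reached 0.369 RPKM in replicate 1, against 4.48 to 24.6 RPKM in Ezh2 loss (median 10.1). Its log2 difference was -3.44 (SE 0.42, limma adjusted p = 0.000925). Tmem181b-ps was listed at 0 in all 7 JAK2V617F libraries, against 2.27 to 14.7 RPKM in Ezh2 loss (median 8.70, limma adjusted p = 0.00457). Tmem181b-ps falls outside the naming rule as a pseudogene and is named as 1 of the 10.

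The same locus was detected in the double mutant, which carries JAK2V617F as well. Dynlt1b ran from 15.5 to 32.5 RPKM in the 7 double-mutant libraries, and from 0.256 to 26.3 RPKM in controls. Tmem181b-ps ran from 0.557 to 11.5 RPKM in double-mutant libraries and from 0 to 24.8 RPKM in controls. Control replicate 3 was the lowest control for both, at 0.256 RPKM and 0. Of the 12 other tested genes within 1 megabase of Dynlt1b, only Tmem181b-ps passed, and the median log2 difference of the 12 was -0.07. Near-identical copies limit both genes. Dynlt1a had medians of 3.59 RPKM in JAK2V617F and 6.63 RPKM in Ezh2 loss, Dynlt1c was listed at 0 throughout, and Dynlt1f was below 2 RPKM in all 14 libraries. Tmem181a had medians of 3.29 RPKM in JAK2V617F and 4.08 RPKM in Ezh2 loss. How shared reads were split between copies is not given in the sources used here, so which copy the values belong to is uncertain.

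**Figure D3:**
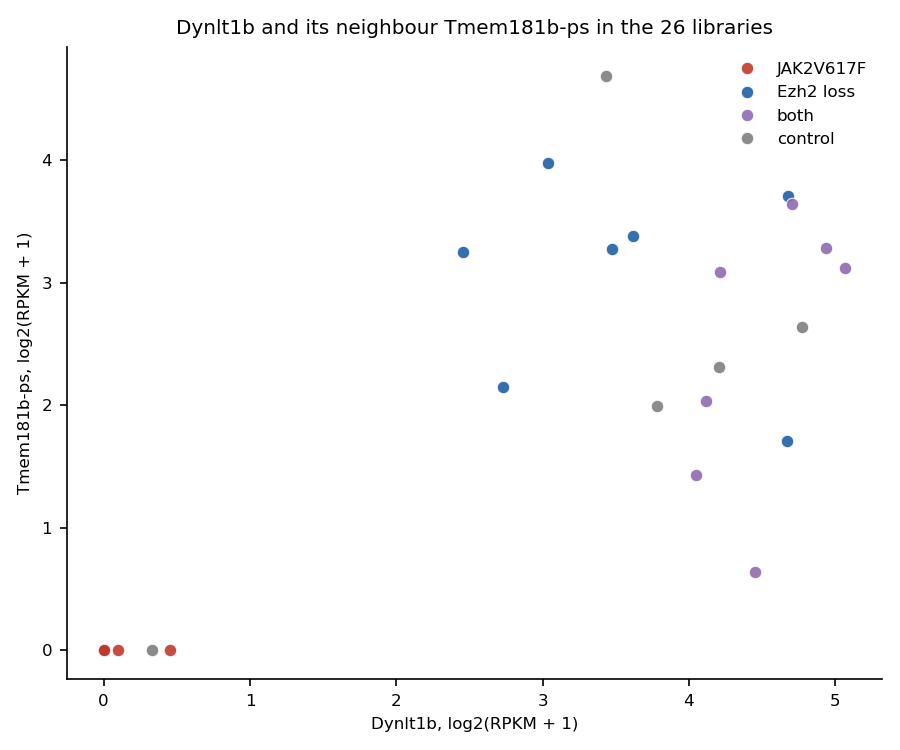
log2(RPKM + 1) of Dynlt1b (horizontal) and Tmem181b-ps (vertical) in all 26 libraries, coloured by group. The 7 JAK2V617F libraries and control replicate 3 lie at Tmem181b-ps of 0 and Dynlt1b below 0.5, apart from the other 18 libraries.

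Pde2a, the phosphodiesterase that cyclic GMP stimulates to break down cyclic AMP and cyclic GMP, ran from 0 to 2.38 RPKM in JAK2V617F (median 0.308), against 5.87 to 14.7 RPKM in Ezh2 loss (median 10.2). Pde2a had a log2 difference of -2.73 (SE 0.42, limma adjusted p = 0.00771). Double-mutant libraries had 11.9 to 32.7 RPKM of Pde2a and controls 2.95 to 20.1 RPKM. The lowest control was thus above the highest JAK2V617F library. Of the other phosphodiesterases of the PDE1 to PDE4 families, none of the tested members passed. Pde4b, the most abundant of them, had medians of 24.01 RPKM in JAK2V617F and 27.4 RPKM in Ezh2 loss.

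Arhgdib, a GDP dissociation inhibitor of small GTPases that is abundant in blood cells, showed the smallest difference of the 10. It ran from 616 to 1445 RPKM in JAK2V617F (median 1211), against 1575 to 2188 RPKM in Ezh2 loss (median 1932), without overlap. Its log2 difference of -0.73 (SE 0.13) had a limma adjusted p of 0.0266. JAK2V617F replicate 1 was the lowest, and double-mutant and control libraries had medians of 1665 and 1461 RPKM. The call was lost without JAK2V617F replicate 4 or 6 or Ezh2 loss replicate 1, 2, 3, 4, 6 or 7, with adjusted p between 0.0542 and 0.0866, and it was also lost without the style covariate (adjusted p = 0.21). Its relative Arhgdia had medians of 32.4 RPKM in JAK2V617F and 35.5 RPKM in Ezh2 loss and did not pass (limma adjusted p = 0.96).

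Neutrophil and red cell marker RNA was mostly lower in JAK2V617F. Neutrophil sums overlapped through JAK2V617F replicate 3 (17655 RPKM). Erythroid sums came close, at 26.5 RPKM at most in JAK2V617F and 29.7 RPKM at least in Ezh2 loss. Libraries at the edges cannot separate marker RNA from genotype for 9 of the 10 genes. There, every library of either genotype lies outside the range of the other. Only Gnb1 overlapped. Gnb1 was at 279.9 RPKM in JAK2V617F replicate 3, which had the most neutrophil and erythroid marker RNA of its group, against 82.4 RPKM in Ezh2 loss replicate 5, which had the least neutrophil marker RNA (404 RPKM), and 109.5 RPKM in replicate 7, which had the least erythroid marker RNA (29.7 RPKM). With the mean log2 level of 6 neutrophil genes as a further covariate, 0 genes passed in limma, against 513 at an unadjusted p under 0.05. With haemoglobin as the covariate 0 passed, against 446. That covariate holds Hba-a1 and Hba-a2, listed at 0 in both genotypes, and Hbb-b1, at 0.527 RPKM at most. It also holds Beta-s, with medians of 3.83 RPKM in JAK2V617F and 877 RPKM in Ezh2 loss. The log2 difference of Gas5 was 1.11 (SE 0.17, limma adjusted p = 0.0515) with the neutrophil covariate and 1.06 (SE 0.22, adjusted p = 0.23) with haemoglobin. Dynlt1b was at -3.48 (SE 0.56, adjusted p = 0.0515) with the neutrophil covariate and at -4.23 (SE 0.67, adjusted p = 0.062) with haemoglobin. Gnb1 was at 1.79 (SE 0.40) with the neutrophil covariate and 0.90 (SE 0.45) with haemoglobin. The neutrophil covariate contains Retnlg itself, and the part of mature cells in these results was not tested further.

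The comparison was repeated in the number-last libraries, 5 against 5. There 11 genes passed (0.1% of those tested), 5 higher and 6 lower in JAK2V617F. They shared 7 genes with the fit of all 14 libraries, 7 of the 10 and 7 of the 11, and the fits have these 10 libraries in common. The number-last count depended on single libraries: it was 3 without JAK2V617F replicate 2, 5, 6 or 7, 4 without Ezh2 loss replicate 6, 6 without JAK2V617F replicate 4 or Ezh2 loss replicate 7, and 25 without Ezh2 loss replicate 5. Gas5, Gadd45g, Gnb1, Retnlg, Dynlt1b, Tmem181b-ps and Arhgdib passed in both. Esr1, Ppp1r14a and Pde2a were at 2.74, 2.52 and -2.84 in the number-last libraries and did not pass there (limma adjusted p = 0.16, 0.16 and 0.13). The other 4 were Srsf2 and Rpl29, which were higher, and Csrp1 and Beta-s, which were lower.

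In the 2 against 2 number-first libraries no gene passed (0%), and 422 had an unadjusted p under 0.05 in limma. These 4 libraries are part of the 14 that chose the 10 genes, and 9 of the 10 do not overlap between the genotypes, so their sign there was fixed by the choice and only that of Gnb1 was free. Gas5 was at 1.20 and Gadd45g at 1.54 in number-first libraries, beside 1.19 and 1.69 in number-last libraries. Esr1 was at 3.83 and Dynlt1b at -4.40, beside 2.74 and -3.06. A direct limma test of whether the genotype difference itself differed between the title styles called 0 genes (0%), with 363 at an unadjusted p under 0.05, and 4 genes without Ezh2 loss replicate 4. The smallest p-values among the genes named here were those of Gnb1 (0.000138), Beta-s (0.00505) and Srsf2 (0.00629).

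**Figure D4:**
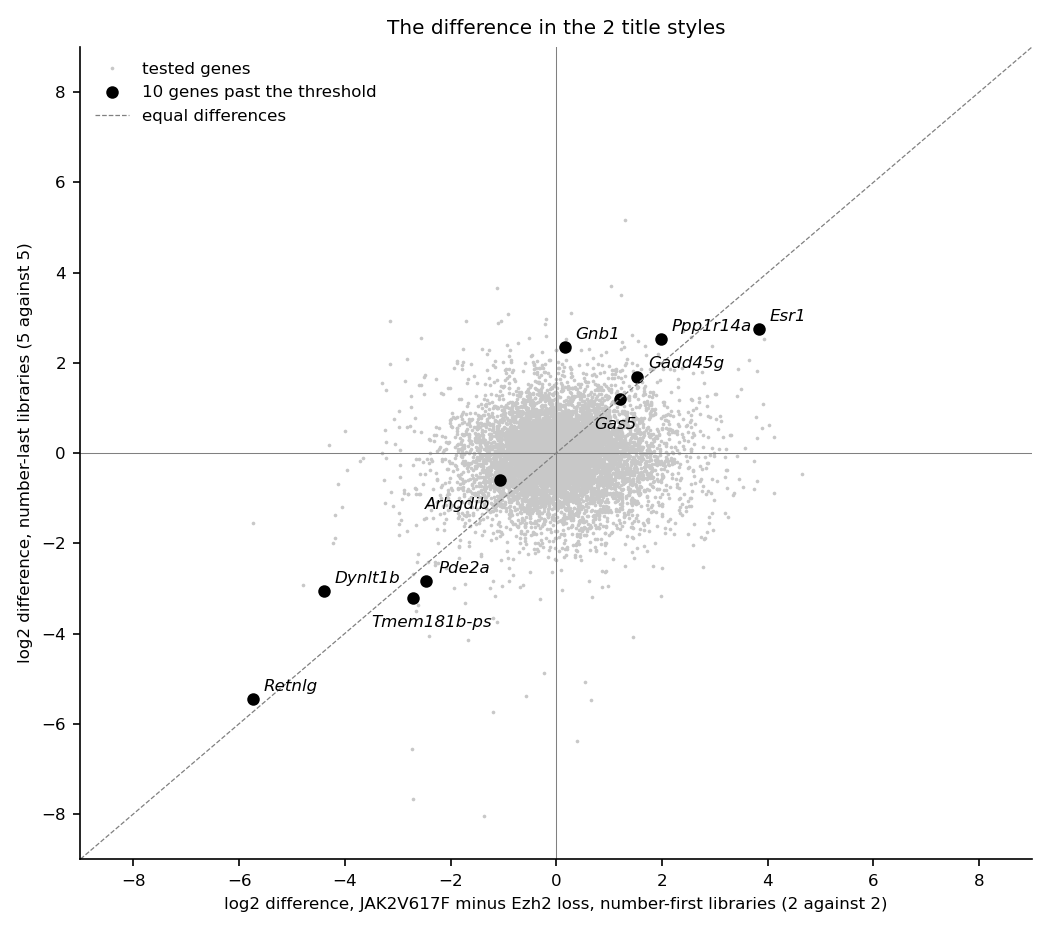
log2 difference (JAK2V617F minus Ezh2 loss) in number-first libraries (horizontal, 2 against 2) and in number-last libraries (vertical, 5 against 5) for the 11001 tested genes, with the 10 genes past the threshold in black. Both axes use libraries of the fit that chose the 10 genes, so the shared sign of the 9 genes without overlap is fixed, and Gnb1 sits at 0.16 on the horizontal and 2.34 on the vertical axis.

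The 4 further genes of the number-last fit differed less in number-first libraries. Srsf2, a splicing factor mutated in myeloid neoplasms, ran from 409 to 1437 RPKM in JAK2V617F (median 1163), against 537 to 864 RPKM in Ezh2 loss (median 635). The lowest JAK2V617F value belonged to replicate 1, a number-first library. Its log2 difference was 0.90 in number-last (limma adjusted p = 0.0261) and -0.10 in number-first libraries. Csrp1, a LIM-domain protein that binds actin-associated partners, was at 2.21 to 25.9 RPKM in the 5 number-last JAK2V617F libraries and at 68.4 and 81.1 RPKM in the 2 number-first ones. In Ezh2 loss Csrp1 ran from 39.5 to 122 RPKM. Its log2 difference was -2.91 in number-last libraries (limma adjusted p = 0.0383), -0.64 in number-first libraries and -2.26 in all 14 (adjusted p = 0.0704).

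Rpl29, a protein of the large ribosomal subunit, ran from 90.8 to 237 RPKM in JAK2V617F (median 112), against 0.108 to 183 RPKM in Ezh2 loss (median 1.5). Ezh2 loss replicates 2, 5, 6 and 7 were at or below 1.5 RPKM, while replicates 1, 3 and 4 were above 28 RPKM. The log2 difference was 4.06 (SE 0.80, limma adjusted p = 0.0704), and it was 5.16 in number-last libraries (adjusted p = 0.0311). Rpl29 has many processed copies in the genome, so its value is uncertain. Beta-s, the adult beta globin Hbb-bs, ran from 0 to 26.5 RPKM in JAK2V617F (median 3.83), against 18.4 to 5786 RPKM in Ezh2 loss (median 877). Its log2 difference was -6.14 (SE 1.27, limma adjusted p = 0.17), and it was -8.05 in number-last libraries (adjusted p = 0.0383).

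The other genes that led on the JAK2V617F side did not pass. Socs2, a cytokine-inducible inhibitor of JAK-STAT signalling, ran from 18.3 to 56.0 RPKM in JAK2V617F (median 35.0), against 2.08 to 26.2 RPKM in Ezh2 loss (median 9.44). It was at a log2 difference of 1.79 (SE 0.39, limma adjusted p = 0.15). Controls had a Socs2 median of 43.7 RPKM and double-mutant libraries of 18.8 RPKM. Zfp296, a zinc finger protein, ran from 14.1 to 32.2 RPKM in JAK2V617F, against 0 to 3.88 RPKM in 6 Ezh2 loss libraries and 19.1 RPKM in replicate 7. Without that replicate Zfp296 passed (adjusted p = 0.00796), and with it the adjusted p was 0.10. Spata24, a gene first described in sperm formation, had a log2 difference of 1.45 (adjusted p = 0.13).

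The last 3 of these leading genes act in mitochondria or protein folding. Hsd17b10, a mitochondrial dehydrogenase that is also part of mitochondrial RNase P, had medians of 875 RPKM in JAK2V617F and 556 RPKM in Ezh2 loss. Mrps34, a protein of the small mitochondrial ribosomal subunit, ran from 121 to 189 RPKM in JAK2V617F, against 62.9 to 130.1 RPKM in Ezh2 loss. Bag5, a partner of HSP70 chaperones, ran from 53.5 to 94.8 RPKM in JAK2V617F, against 22.6 to 59.4 RPKM in Ezh2 loss. Their log2 differences were 0.53, 0.71 and 1.03, with adjusted p of 0.17, 0.24 and 0.25 in limma.

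Of the 12 genes that led on the Ezh2 loss side, Jun was the 1 that did not pass although the genotypes did not overlap. It is a core subunit of the AP-1 transcription factor and an immediate early gene. Jun ran from 10.96 to 43.4 RPKM in JAK2V617F (median 30.4), against 51.8 to 172 RPKM in Ezh2 loss (median 56.9), with no overlap. The log2 difference was -1.495 (SE 0.34, limma adjusted p = 0.19). Every double-mutant library (57.5 to 237 RPKM) and every control (64.1 to 152 RPKM) was also above the highest JAK2V617F library. Creld1 and Ypel3 were at -2.17 and -0.70 (adjusted p = 0.30 each). Ypel3 was at 342 and 394 RPKM in the number-first JAK2V617F libraries and at 40.7 to 66.2 RPKM in the number-last ones.

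The remaining 3 genes of this group are products of myeloid cells. Slpi, a protease inhibitor, and Ccl6, a chemokine, were each listed at 0 in 6 JAK2V617F libraries, with replicate 3 at 3.17 and 3.40 RPKM. In Ezh2 loss they reached 72.9 and 106 RPKM, and were listed at 0 in 1 and 2 libraries. Cybb, the catalytic subunit of the phagocyte NADPH oxidase, was listed at 0 in all 7 JAK2V617F and all 5 control libraries, against a median of 7.83 RPKM in Ezh2 loss. None of the 3 passed (limma adjusted p = 0.17 for Slpi, 0.17 for Cybb and 0.30 for Ccl6). With 1 library left out, Slpi and Cybb each passed in 1 of 14 fits (limma adjusted p = 0.00768 and 0.0148), and Ccl6 in 0.

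Most tested genes of the neutrophil and erythroid lists had lower means in JAK2V617F. All 15 tested neutrophil granule genes of 22 in the table were lower, with a median log2 difference of -3.46, against 0.0026 over all genes, and 1 (Retnlg) passed. In the number-last libraries 2 of the 15 were higher and 13 lower. S100a8 ran from 38.8 to 8522 RPKM in JAK2V617F (median 62.6), against 271 to 24490 RPKM in Ezh2 loss (median 6283), and had a log2 difference of -5.46 (limma adjusted p = 0.38). With 1 library left out, S100a8 passed in 1 of 14 fits (limma adjusted p = 0.0208). Of 12 tested erythroid genes 10 were lower and none passed in the fit of all 14 libraries, with a median of -0.97. An unadjusted p under 0.05 was found for 60% of the tested neutrophil genes and 50% of the tested erythroid genes, against 6.54% of all genes. Klf1, the master regulator of red cell genes, was listed at 0 in 5 JAK2V617F libraries, against a median of 12.4 RPKM in Ezh2 loss (-3.14, adjusted p = 0.47). Many listed genes did not reach the level filter, and a mature-cell gene can pass it through the Ezh2 loss libraries alone. The lists share members with each other.

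Stem cell and megakaryocyte genes gave no common direction. Of 38 tested HSC genes 21 were higher and 17 lower, none passed, and 21.1% had an unadjusted p under 0.05, against 6.54% of all genes. Vwf, von Willebrand factor, which marks platelet-biased HSCs in mice, ran from 6.47 to 22.1 RPKM in JAK2V617F (median 12.5), against 2.15 to 6.96 RPKM in Ezh2 loss (median 4.81). Its log2 difference was 1.49 (SE 0.41, limma adjusted p = 0.40), and medians were 4.30 RPKM in double-mutant and 9.77 RPKM in control libraries. Mycn, a MYC family factor, had medians of 114 RPKM in JAK2V617F and 57.4 RPKM in Ezh2 loss (0.92, adjusted p = 0.52). Gfi1b, a repressor needed for platelet and red cell formation, had medians of 103 RPKM in JAK2V617F and 174 RPKM in Ezh2 loss (-0.57, adjusted p = 0.64). Of 24 megakaryocyte and platelet genes 9 were higher and 15 lower, and Tubb1, a platelet tubulin, was listed at 0 in 6 JAK2V617F libraries and 1 Ezh2 loss library.

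The pathways named by the genotypes were followed through their parts. Of 11 JAK and STAT factors 3 were higher and 8 lower, and none had an unadjusted p under 0.05. Of 25 feedback and target genes of the pathway 12 were higher and 13 lower, and 0 passed. An unadjusted p under 0.05 in limma was found for 3 of the higher and 4 of the lower genes. That is 28% of the list, against 6.54% of all genes. By smallest p the list was led by Socs2 and Dusp6, which were higher, and Lrg1 and Gfi1b (-0.57), which were lower. Cish and Socs1, related to Socs2, were at 0.49 and 0.53 (limma adjusted p = 0.89 and 0.94). Of 21 cytokine receptors 16 were lower, with a median of -0.24. Of 11 PRC2 subunits 5 were higher and 6 lower, and of 18 PRC1 subunits 7 were higher and 11 lower, with none passing. Rbbp7, a histone-binding subunit of PRC2, had medians of 337 RPKM in JAK2V617F and 241 RPKM in Ezh2 loss (0.43, adjusted p = 0.63). Ring1, an E3 ligase subunit of PRC1, had medians of 4.71 RPKM in JAK2V617F and 0.873 RPKM in Ezh2 loss (1.62, adjusted p = 0.60). Only 4 of 21 listed fetal Polycomb targets were tested, among them Hmga2 at a log2 difference of 0.02.

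Immune and stress lists held members on both sides. Of 38 interferon-stimulated genes 27 were lower in JAK2V617F, with a median of -0.28, and 28.9% of the 38 had an unadjusted p under 0.05, against 6.54% of all genes. Oas3, a sensor of double-stranded RNA, ran from 0 to 5.34 RPKM in JAK2V617F, against 7.32 to 13.3 RPKM in Ezh2 loss (-2.00, limma adjusted p = 0.35). Usp18, which damps interferon receptor signalling, had medians of 30.3 RPKM in JAK2V617F and 64.3 RPKM in Ezh2 loss (-1.09, adjusted p = 0.48). Ifitm1, an interferon-induced membrane protein, had medians of 3348 RPKM in JAK2V617F and 2846 RPKM in Ezh2 loss (0.36, adjusted p = 0.48). Of 9 MHC class II genes 8 were higher in JAK2V617F and none had an unadjusted p under 0.05. Of 26 AP-1 and immediate early genes 20 were lower (median -0.48), although Gadd45b stood at 2.06. Of 28 chaperone genes 21 were higher (median 0.19), led by Dnaja1, an HSP40 co-chaperone, with medians of 46.1 RPKM in JAK2V617F and 26.8 RPKM in Ezh2 loss. Inducible Hspa1a was listed at 0 in all 7 JAK2V617F libraries and reached 22.2 RPKM in Ezh2 loss. No gene of the interferon, MHC class II, AP-1 or chaperone list passed in all 14 or in the number-last libraries.

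Growth and metabolism lists had more members higher than lower in JAK2V617F, by small amounts, while division genes had more lower. Of 80 cytosolic ribosomal protein genes 55 were higher (median 0.07), of 73 mitochondrial ribosomal protein genes 50 (median 0.11), and of 52 nuclear-encoded respiratory chain genes 35 (median 0.07). In that order, 1.25%, 6.85% and 5.77% had an unadjusted p under 0.05 in limma, against 6.54% of all genes. The share was 22.2% in the MYC and ribosome biogenesis list. Of 27 MYC and ribosome biogenesis genes 18 were higher (median 0.15), among them Npm1, a nucleolar chaperone, with medians of 367 RPKM in JAK2V617F and 297 RPKM in Ezh2 loss (0.27, limma adjusted p = 0.75). Of 49 S and G2/M genes 35 were lower, with a median of -0.43, and 3 (6.12%) had an unadjusted p under 0.05, against 6.54% of all genes. Of these 3, Gins2 and Cdc6, which act at the start of DNA replication, were at 1.57 and 1.33 (limma adjusted p = 0.75 each), and Ube2c, which drives mitotic exit, was at -2.18 (adjusted p = 0.76). Cdkn2d and Cdkn1b, inhibitors of cyclin-dependent kinases, were at -0.934 and -1.004 (adjusted p = 0.30 and 0.47). Cdkn2d ran from 46.1 to 132 RPKM in JAK2V617F, against 124 to 244 RPKM in Ezh2 loss. None of these lists held a gene that passed in the fit of all 14 libraries, and Rpl29 of the cytosolic ribosomal list passed in the number-last libraries. Genes of a list are not independent of each other.

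**Figure D5:**
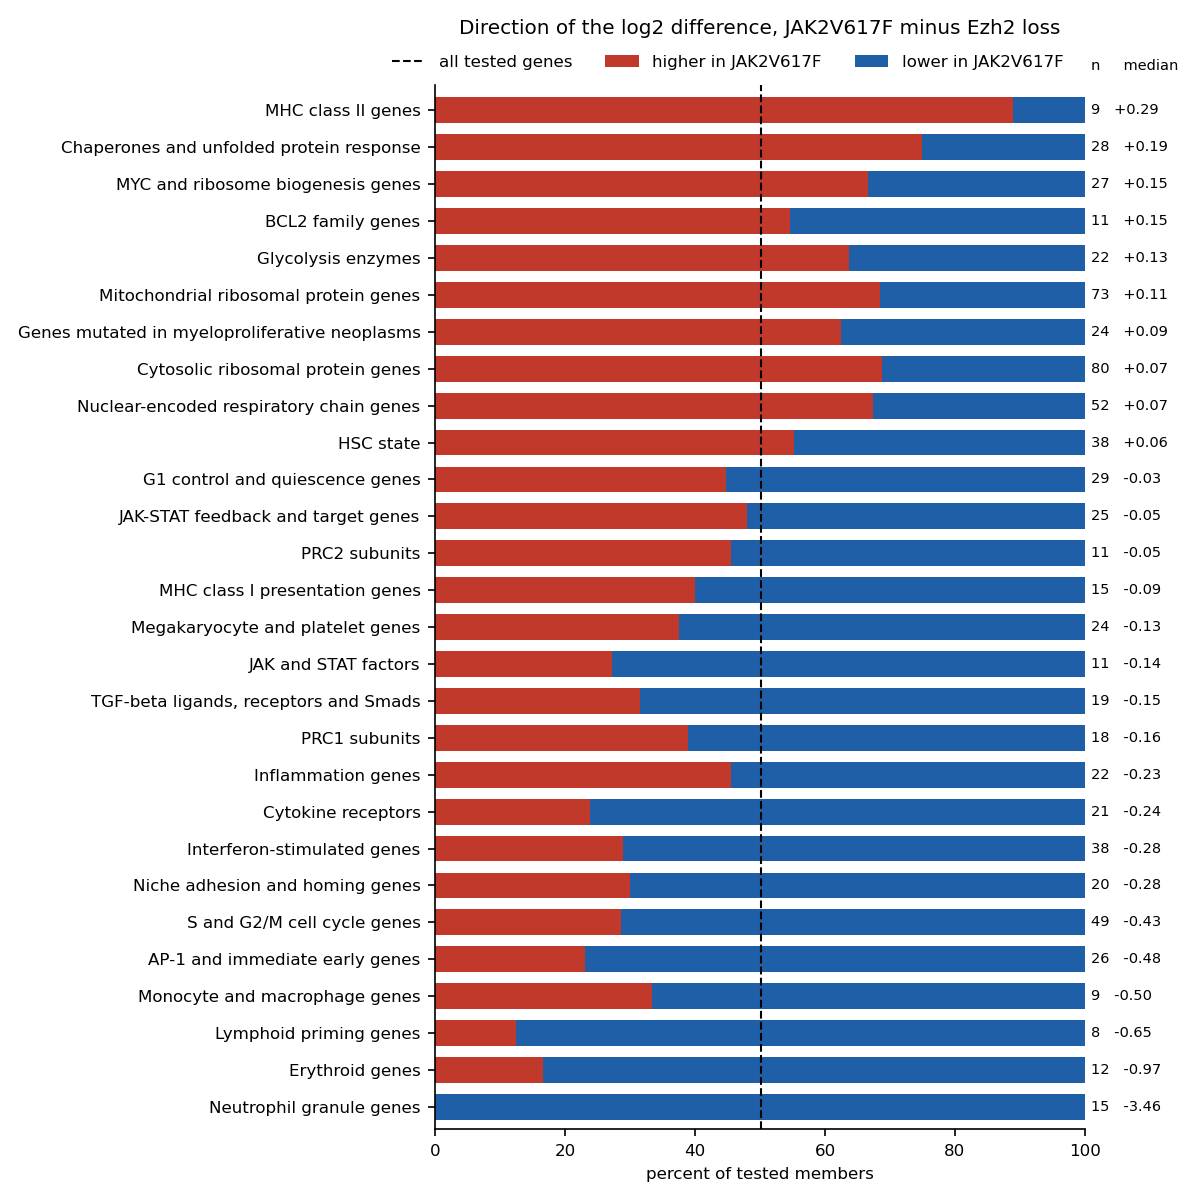
Percent of the tested members of each list with 8 or more tested genes whose mean was higher (red) or lower (blue) in JAK2V617F than in Ezh2 loss, with the number tested and the median log2 difference at the right. The dashed line is the 50.2% of all tested genes that were higher, and the neutrophil list, at the foot, has no higher member.

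Genes near mouse Ezh2 and mouse Jak2 were read separately, and 0 genes passed within 10 megabases of either. Whether the JAK2V617F allele lies at mouse Jak2 is not stated in the labels. Within 10 megabases of Ezh2, 96 other genes were tested, 50 higher and 46 lower, with 6 and 3 at an unadjusted p under 0.05. Within 10 megabases of Jak2, 71 were tested, 37 higher and 34 lower, with 1 and 4. On chromosome 6, which carries Ezh2, 9.62% of 551 genes had an unadjusted p under 0.05, the highest share of any chromosome, against 5.04% of 377 genes on chromosome 19, which carries Jak2, and 6.54% of all genes. Arhgdib, on chromosome 6, lies outside the window around Ezh2.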

How the data were processed

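RNA of purified mouse HSCs was sequenced in 26 libraries, and the authors deposited 1 table of RPKM values per gene. The submitters' processing notes name STAR 2.4.2a, SAMtools 0.1.19, Subread 1.5.0 and GRCm38 (mm10), without roles. Nothing else on how RPKM were made is recorded, and the deposited table holds no read counts, so read depth was estimated from the steps between low values and is approximate. For the 14 libraries, log2(RPKM + 1) of the 11001 of 23416 genes with at least 1 RPKM in 5 or more libraries was fitted with limma 3.58.1 (R 4.3.3; trended, robust variance), with genotype and title style as terms and Benjamini-Hochberg adjustment at 0.05. The fit was tested on simulated data. Ezh2 and Jak2 also had exact permutation tests within title style, 1512 arrangements. The 12 genes named in each direction had a mean of at least 5 RPKM in the higher group and were no predicted gene, RIKEN clone or pseudogene. Those past the threshold came first and the rest were taken by smallest p. Lists name members among the 4 with the smallest p. Relatives and neighbours of the named genes, among them Cish, Socs1 and Snord47, fall outside that rule and were chosen after values were seen. The members and lists were chosen with earlier results of these data known. Alternatives covered scaling, pseudocount, filter, covariates, variance model and left-out libraries. Some members of the marker and gene lists are not reported here by name.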

Additional observations from a re-analysis of the deposited data

Results flagged for a closer look

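Single libraries stood apart from the other 6 of their group in 8 of the 54 gene and genotype groups looked at, by the gap to the nearest library relative to the whole range. Chance marks about 1 in 20 groups where values are normally spread, a rate that was not measured here and does not apply to groups with 6 values listed at 0, which gave 4 of the 8. In JAK2V617F replicate 5, Jak2 was at 0.996 RPKM, against 11.35 to 18.94 RPKM in the others. In JAK2V617F replicate 3, Retnlg was at 7.939, Slpi at 3.167 and Ccl6 at 3.4 RPKM, and each was listed at 0 in the other 6, in the library that also held the most neutrophil marker RNA of its group. In JAK2V617F replicate 1, a number-first library, Rpl29 was at 236.7 RPKM, Arhgdib at 615.9 RPKM and Dynlt1b at 0.3694 RPKM, the first and the last above and the second below the other 6. Ppp1r14a was at 1.303 RPKM in Ezh2 loss replicate 7 and listed at 0 in the other 6.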

How the results depend on the processing

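The count of 10 genes was 7 to 13 under 15 alternatives of covariate, libraries, scaling, pseudocount, filter and weighting. It was 0 in number-first libraries (422 at an unadjusted p under 0.05), 6 without variance trend and robustness, 4 against a log2 change of 0.5, and 0 with a neutrophil (513) or haemoglobin (446) covariate. Leaving out 1 library gave 7 to 16. The number-last count of 11 was 7 with a pseudocount of 0.1 and 7 with 5, and 3 to 25 with 1 library left out. The count for the difference between title styles was 0 to 4 with 1 library left out. Ezh2 was at 0.571 with a pseudocount of 5 (exact p = 0.0529), 0.889 in number-last libraries (exact p = 0.0794), and 0.472 to 0.886 with 1 library left out. With the title number as a replicate block, 1 gene passed (667 unadjusted) in numbers 2 to 5, against 5 without the block, a setting chosen after seeing the data. Same-numbered libraries deviated with correlations of 0.036, 0.031, -0.09 and 0.014. Whether they share more than a number is not stated in the labels and cannot be told from these correlations. None of the 10 genes changed sign under these alternatives. Apart from Gnb1, they do not overlap between the genotypes, so fewer libraries or another pseudocount could not change their sign. Srsf2, past the threshold in number-last libraries alone (0.90), was at -0.10 in number-first libraries. Fits with libraries left out also held fewer libraries, and the cause of these changes was not tested. Depth is known only as an estimate, and genes listed at 0 carry no lower limit.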

Other observations

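Further lists, not described above, held no gene past the threshold in the fit of all 14 libraries, and in number-last libraries 1, Srsf2 of the genes mutated in myeloproliferative neoplasms. Of 9 tested monocyte and macrophage genes 6 were lower in JAK2V617F than in Ezh2 loss, of 8 lymphoid priming genes 7, of 20 niche adhesion and homing genes 14, and of 19 TGF-beta ligands, receptors and Smads 13, with median log2 differences of -0.50, -0.65, -0.28 and -0.15. Of 15 MHC class I presentation genes 6 were higher and 9 lower, and of 22 inflammation genes 10 and 12. Of 22 glycolysis enzymes 14 were higher, of 11 BCL2 family genes 6, and of 24 genes mutated in myeloproliferative neoplasms 15, with medians of 0.13, 0.15 and 0.09. Of 29 genes of G1 control and quiescence 13 were higher and 16 lower. Of 5 sex-linked marker genes 4 were higher and 1 lower (median 0.82), and 0% had an unadjusted p under 0.05 in limma. Ddx3y, on the Y chromosome, ran from 0 to 58.2 RPKM in JAK2V617F and from 0 to 31.8 RPKM in Ezh2 loss. Xist ran from 0 to 40.1 RPKM in JAK2V617F and from 0 to 63.3 RPKM in Ezh2 loss. With Xist as a covariate 11 genes passed. Over all tested genes 50.2% were higher.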
